A study of Rattus norvegicus with 12 samples.

Results

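Lungs of growth-restricted rat pups were compared with control lungs at postnatal day 4. The comparison holds 4 of the 12 samples of the series: 2 pools labelled IUGR (intrauterine growth restriction) and 2 control pools. All pups were Sprague-Dawley rats, and the growth restriction was produced with a low protein diet. Over the 3 ages studied (days 4, 10 and 21) the study used 14 IUGR and 15 control pups, and RNA of 2 or 3 pups was pooled for each array. Total RNA of whole lung was hybridised in 1 colour (Cy3) to NimbleGen expression arrays, which report 1 intensity for each of 26208 features, so all values below are log2 intensities. The labels do not tie pups, litters or sexes to pools, so an error or p-value given here measures the spread between pools only.

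In the rat, day 4 opens the phase of alveolarisation, in which septa lined by capillaries and carrying elastic fibres subdivide the saccules of the newborn lung. Type 2 cells secrete surfactant, type 1 cells form the gas exchange surface, and the airways are lined by club, goblet-like and ciliated cells. Resident macrophages, newly arrived myeloid cells and lymphocytes populate the tissue during the same days. Interferons act on nearly all of these cells and switch on a shared set of antiviral genes together with the MHC class I genes, which present peptides to T cells.

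The tissue label was checked against defining markers. Sftpc, which encodes surfactant protein C of type 2 cells, stood at 15.45 and 15.48 in the IUGR pools and at 15.40 and 15.45 in the control pools. Scgb1a1, the club cell secretoglobin, stood at 15.32 and 15.24 against 15.15 and 15.22. Alb, the albumin gene of liver, lay between 7.56 and 7.95, where the lowest features of the 4 arrays lay between 6.89 and 6.92. The 4 arrays had median log2 intensities of 8.68 to 8.71. Pearson correlations over all features were 0.995 between the control pools, 0.988 between the IUGR pools, and 0.988 to 0.993 across the groups. The median size of the difference between pools was 0.145 for the IUGR pair and 0.0966 for the control pair, against 0.0976 for the IUGR mean minus the control mean. The last value compares means of 2 pools and the others single pools, so their sizes are not directly comparable.

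The 2 IUGR pools were not alike. IUGR replicate 2 exceeded replicate 1 by more than 1 on the log2 scale at 157 features (0.599% of 26208) and lay below it by that margin at 85 (0.324%). The corresponding numbers for control replicate 2 against replicate 1 were 13 (0.0496%) and 8 (0.0305%). Of the 20 named genes with the largest excess in IUGR replicate 2, 8 are members of the heart muscle list, 4 of the brown fat or adipocyte lists and 3 of the skeletal muscle list. Of 9496 genes with a symbol, the heart muscle list holds 27, brown fat 9, adipocyte 24 and skeletal muscle 18. The differences between pools are given as a description, since 1 pool against 1 pool has no replicate.

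Nppa, the atrial natriuretic peptide gene, stood at 7.46 in IUGR replicate 1 and at 12.08 in IUGR replicate 2, and at 10.04 and 7.94 in the controls. Control replicate 1 therefore also stood above the lowest pools for this gene, though below IUGR replicate 2. Nppb, the B-type natriuretic peptide gene, stood at 7.36 and 10.02 in the IUGR pools and at 7.89 and 7.25 in the controls. Myh6, the alpha myosin heavy chain of atria and rodent ventricles, stood at 11.13 and 13.27 against 11.98 and 11.19. Casq2, the calsequestrin of heart muscle, stood at 9.35 and 11.42 against 9.98 and 9.27. For each of these genes IUGR replicate 2 was the highest pool and IUGR replicate 1 lay near the lower control. Over the 27 heart muscle genes measured, the median distance from the control mean was -0.06 in IUGR replicate 1 and 1.10 in replicate 2. Of the 27, 25 lay above the control mean in replicate 2 against 12 in replicate 1. Over all 26208 features these counts were 12911 and 13029. In 10 of the 27 both IUGR pools lay above both controls and in 2 below, against 18.3% and 19.1% of all features.

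Several fat genes showed the same split. Ucp1, the uncoupling protein that defines brown fat, stood at 7.91 and 12.02 in the IUGR pools and at 8.79 and 7.999 in the controls. Adipoq, the fat cell hormone adiponectin, stood at 7.39 and 11.59 against 8.10 and 8.12. Fabp4, the fatty acid binding protein of fat cells and some macrophages and endothelium, stood at 11.35 and 13.50 against 11.34 and 11.40. For all of these, IUGR replicate 2 stood far above the other 3 pools. Over 9 brown fat genes the median distance from the control mean was -0.03 in replicate 1 and 0.31 in replicate 2, and over 24 adipocyte genes it was -0.11 and 0.19. Of the 9, 7 lay above the control mean in replicate 2 against 4 in replicate 1, and of the 24, 18 against 6. Other members ran the other way. Scd of the adipocyte list stood at 9.17 and 9.01 against 9.32 and 9.37, and Kcnk3 of the brown fat list at 8.10 and 7.997 against 8.39 and 8.27. Skeletal muscle genes (18 measured, -0.02 and 0.63) and nerve and Schwann cell genes (21 measured, -0.05 and 0.36) followed the same pattern. Myl11, a myosin light chain of fast muscle, is not counted in the skeletal muscle list, which holds it under its older symbol Mylpf, and stood at 9.02 and 10.09 against 8.85 and 8.97. Cidea, Plin1 and Myl7, other defining genes of fat and heart, are not among the features named here.

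The features low in IUGR replicate 2 included genes of red cell precursors and platelets. Hemgn, hemogen of erythroid precursors, stood at 13.29 and 12.30 in the IUGR pools and at 13.50 and 13.27 in the controls. Pf4, platelet factor 4, stood at 13.34 and 12.32 against 12.70 and 12.69, so the IUGR pools lay on either side of the controls. Igfbp1, an insulin-like growth factor binding protein of liver, stood apart in the other pool: it was at 8.97 in IUGR replicate 1 and at 7.83 in replicate 2, with controls at 7.87 and 7.99. Irf2, an interferon regulatory factor, was at 10.90 in IUGR replicate 1 and between 12.11 and 12.35 in the other 3 pools. Because of these splits the IUGR pools are shown apart below, and the part of the heart, fat and muscle signal in any of them was not tested.

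**Figure D1:**
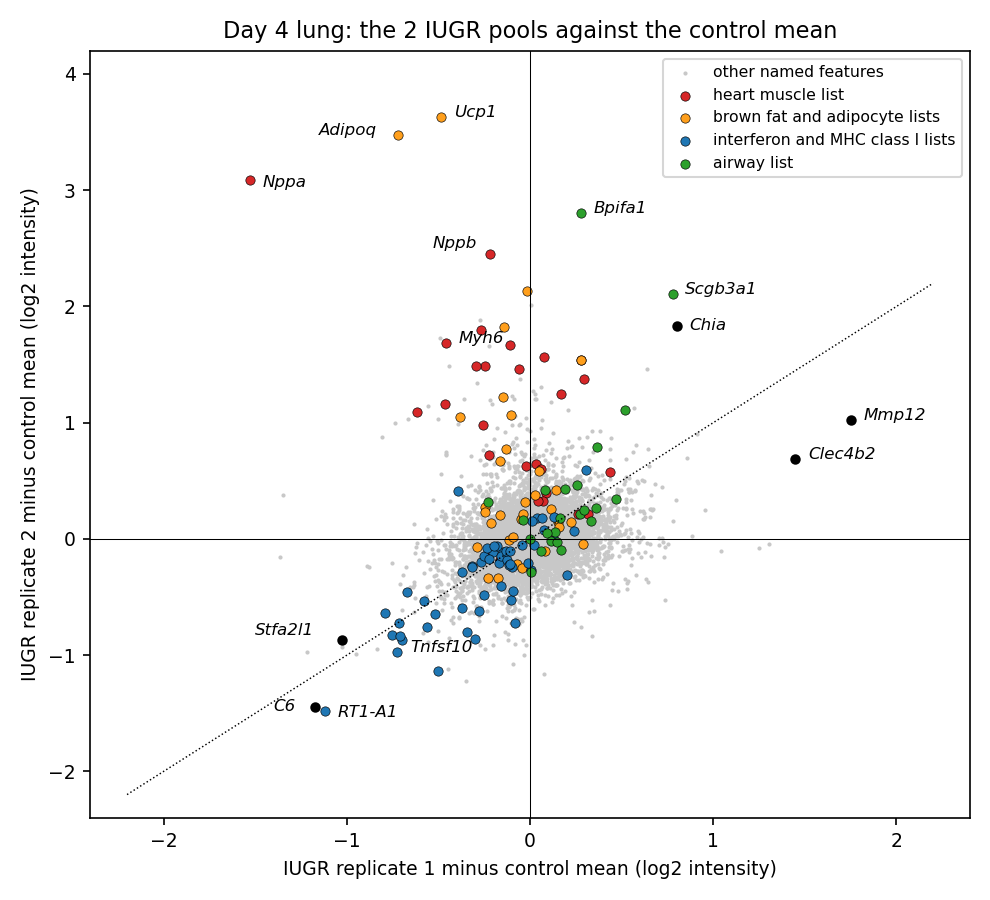
Distance of each IUGR pool from the control mean at day 4, for replicate 1 on the horizontal axis and replicate 2 on the vertical axis (log2 intensity), with 1 point per named feature, gene lists in colour, a few other genes in black and equal distances on the dotted line. Several heart muscle and fat genes sit much higher on the vertical than on the horizontal axis (Nppa and Ucp1 above 3). Mmp12 and Clec4b2 are right and up and RT1-A1 and C6 left and down in both pools.

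No feature passed an adjusted p of 0.05 for IUGR minus control in limma's moderated test (0 of 26208, 0%). At an unadjusted p of 0.05, 2514 features passed (9.59%), of which 1080 were higher in IUGR lung (4.12%) and 1434 were lower (5.47%). Both IUGR pools lay above both control pools at 18.3% of the features and below both at 19.1%. The IUGR mean was higher at 50.9% of features and lower at 49.1%, and the median difference over all features was 0.00. Differences past 1 on the log2 scale were few, with 16 features higher (0.0611%) and 19 lower (0.0725%). With 2 pools a side, the smallest 2-sided p an exact permutation test of 1 gene can give is 0.333, so single genes have no such test here. Genes are therefore described by their values in the 4 pools, the difference ± the standard error of the fit, and its adjusted p. Fewer cells of a type and less RNA per cell cannot be told apart in whole tissue, which applies to every list below.

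Genes of macrophages and newly recruited myeloid cells were among those with the widest separation. Mmp12, the macrophage elastase, stood at 10.56 and 9.83 in the IUGR pools and at 8.93 and 8.69 in the controls, a difference of 1.38 ± 0.23 (limma adjusted p = 0.267). Both IUGR pools thus lay clear of both controls, with means 2.61-fold apart. Clec4b2, a C-type lectin of myeloid and dendritic cells, stood at 8.89 and 8.13 against 7.34 and 7.54, a difference of 1.07 ± 0.21 (limma adjusted p = 0.317). Mnda, a nuclear protein of myeloid cells, stood at 9.90 and 10.73 against 9.16 and 9.37, a difference of 1.05 ± 0.24. In Mmp12 and Clec4b2 IUGR replicate 1 was the higher pool, and in Mnda replicate 2, but no IUGR pool overlapped a control.

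The remaining macrophage genes differed by less. Adgre1, which encodes a surface receptor of macrophages, stood at 8.92 and 9.32 against 8.52 and 8.63. C1qb, a chain of complement C1q made by macrophages, stood at 9.18 and 9.26 against 8.81 and 8.84. Lst1, a leukocyte-specific transcript, stood at 10.04 and 9.90 against 9.46 and 9.54, a difference of 0.47 ± 0.09 (limma adjusted p = 0.285). Each of these genes was higher in both IUGR pools. Fcgr3a, an activating receptor for IgG, ran the other way at 9.58 and 9.40 against 9.91 and 9.87. The pan-macrophage marker Cd68 differed by 0.19 ± 0.09. Of 22 macrophage and monocyte genes, 12 lay above both controls in both IUGR pools and 5 below, against 18.3% and 19.1% of all features. The list's median difference was 0.12, and it was 0.11 in replicate 1 and 0.11 in replicate 2, beside 0.00 over all features.

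Chemokines and cytokines that attract or activate myeloid cells had similar values. Cxcl1, a neutrophil chemokine, stood at 9.10 and 8.94 in the IUGR pools and at 8.06 and 8.43 in the controls, a difference of 0.78 ± 0.13 (limma adjusted p = 0.267). Il1b, interleukin 1 beta, stood at 9.09 and 8.88 against 8.50 and 8.31, a difference of 0.58 ± 0.11 (limma adjusted p = 0.317). Ccl2, the monocyte chemokine, stood at 10.80 and 10.69 against 10.35 and 10.08. In all of these the pools of the groups did not overlap. Cxcl2, Cxcl6, Ccl4 and Ccl7 had differences of 0.35, 0.36, 0.29 and 0.31. Tnf was not separated, with 8.50 and 8.05 against 7.92 and 8.14. Of 33 inflammatory signal genes measured, 23 had a higher IUGR mean. Both IUGR pools lay above both controls for 13 and below for 3, against 18.3% and 19.1% of all features. At an unadjusted p of 0.05, 9 passed, all with a higher IUGR mean, against 4.12% of all features in that direction. The list's median was 0.13, with 0.14 in replicate 1 and 0.09 in replicate 2. Bcl2a1, a survival protein of activated leukocytes, stood at 11.68 and 11.60 against 11.12 and 11.08.

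The complement genes C3 and C6 differed in opposite directions. C3, the central component of all complement pathways, stood at 12.59 and 12.31 in the IUGR pools and at 11.87 and 11.88 in the controls, a difference of 0.58 ± 0.13 (limma adjusted p = 0.338). C6, a component of the membrane attack complex, stood at 10.29 and 10.02 against 11.15 and 11.78, a difference of -1.31 ± 0.24 (limma adjusted p = 0.269), or 2.48-fold lower. For both genes the groups did not overlap, in opposite directions. C2, a protease of the classical pathway, stood at 10.63 and 10.50 against 10.93 and 10.89, and Cfi, the factor I that inactivates C3b, at 8.95 and 8.88 against 8.62 and 8.33. Of 21 complement genes, 4 had both IUGR pools above both controls and 5 had both below, shares near the 18.3% and 19.1% of all features, with a median difference of 0.07.

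Several airway genes had both IUGR pools above both controls, some of them with wide differences between the IUGR pools. Scgb3a1, an airway secretoglobin, stood at 12.86 and 14.19 against 11.82 and 12.35, a difference of 1.44 ± 1.03. Its standard error also holds the spread at day 10, where it stood at 9.91 and 12.09 in the IUGR pools and at 8.56 and 11.66 in the controls. Chia, the acidic chitinase of airway and gut, stood at 11.47 and 12.50 against 10.45 and 10.90, a difference of 1.31 ± 0.40 (limma adjusted p = 0.393). Bpifa1, a secreted antimicrobial protein of the upper airways, stood at 8.09 and 10.62 against 7.66 and 7.97, a difference of 1.54 ± 0.78. For these genes both IUGR pools lay above both controls, and replicate 2, the pool high in heart and fat genes, was the higher one. Cyp2f4, a cytochrome P450 of club cells, stood at 11.18 and 11.78 against 10.79 and 10.54. Aldh1a1, a retinaldehyde dehydrogenase, was close between pools at 12.08 and 11.95 against 11.62 and 11.60, a difference of 0.41 ± 0.10 (limma adjusted p = 0.364).

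Across the whole airway list, 20 of 23 genes had a higher IUGR mean, 14 had both IUGR pools above both controls and 0 had both below. Over all features these shares were 50.9%, 18.3% and 19.1%. The list's median difference was 0.24, with 0.17 in replicate 1 and 0.22 in replicate 2. Krt5, the basal cell keratin, had a difference of 0.31. The regulator of ciliated cells Foxj1 stood at 8.15 and 7.99 against 8.21 and 7.96, with overlapping groups. Scgb1a1, quoted above as a tissue marker, differed by 0.09 ± 0.08.

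Most genes induced by interferon were lower in both IUGR pools than in the controls. Tnfsf10, which encodes the death ligand TRAIL, stood at 10.63 and 10.38 in the IUGR pools and at 11.31 and 11.41 in the controls, a difference of -0.85 ± 0.11 (limma adjusted p = 0.149). Oas1a, a 2'-5' oligoadenylate synthetase that activates RNase L, stood at 8.17 and 8.33 against 9.09 and 8.84, a difference of -0.72 ± 0.11 (limma adjusted p = 0.252). Rsad2, the antiviral enzyme viperin, stood at 8.99 and 8.36 against 9.51 and 9.48. Mx2, an antiviral GTPase, stood at 9.47 and 9.40 against 10.44 and 10.01. In each case both IUGR pools lay below both controls. Oas1b, Oasl2 and Ifit3 had differences of -0.78, -0.77 and -0.58, Oas2 of -0.56, and Usp18, which removes the ubiquitin-like protein ISG15, of -0.55. Of 30 genes, 25 had a lower IUGR mean and 20 had both IUGR pools below both controls, against 49.1% and 19.1% of all features. At an unadjusted p of 0.05, 15 were lower and 1 was higher, against 5.47% and 4.12% of all features. The list's median difference was -0.22, and each IUGR pool taken alone gave -0.24. The genes upstream in the pathway differed less: Irf9, a subunit of the interferon-activated transcription factor, by -0.23 ± 0.08, and Irf7, which amplifies interferon production, by -0.17 ± 0.09. Mx1 had overlapping groups at 8.64 and 8.79 against 9.20 and 8.55. The 1 gene with both IUGR pools above both controls was Cxcl10, an interferon-induced chemokine, at 8.22 and 8.51 against 7.89 and 7.94. Slfn4, a schlafen gene outside the list, stood at 9.79 and 9.88 against 10.47 and 10.51.

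The promoters of 3 of these genes are shown. They had the smallest p among the members that were lower in both IUGR pools and held the motif described here. The list is one of interferon-induced genes, so how many of its promoters hold the motif does not bear on the IUGR comparison. Interferon-stimulated response elements are bound by the interferon-activated transcription factor that contains IRF9, and hold a GAAA repeat. A motif of GAAA, any 2 bases and a further GAAA was searched on both strands, with overlapping matches counted, in the 300 bases from 250 before to 50 after the annotated gene start (RefSeq, GRCr8). Capitals mark the bases of a match.
Oas1a (chrchr12:41330216-41330515, + strand): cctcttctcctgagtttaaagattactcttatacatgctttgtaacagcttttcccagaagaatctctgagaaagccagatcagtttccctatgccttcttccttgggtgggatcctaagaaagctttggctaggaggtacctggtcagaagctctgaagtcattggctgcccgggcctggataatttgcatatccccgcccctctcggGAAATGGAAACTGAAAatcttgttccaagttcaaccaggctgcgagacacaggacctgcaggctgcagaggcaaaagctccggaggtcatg
Rsad2 (chrchr6:48788071-48788370, - strand): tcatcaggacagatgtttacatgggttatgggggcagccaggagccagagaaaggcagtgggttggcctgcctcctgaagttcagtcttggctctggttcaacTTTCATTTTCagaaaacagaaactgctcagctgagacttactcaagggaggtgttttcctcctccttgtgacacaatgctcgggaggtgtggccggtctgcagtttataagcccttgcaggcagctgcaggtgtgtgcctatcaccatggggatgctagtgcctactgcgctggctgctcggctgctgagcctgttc
Oas1b (chrchr12:41395803-41396102, - strand): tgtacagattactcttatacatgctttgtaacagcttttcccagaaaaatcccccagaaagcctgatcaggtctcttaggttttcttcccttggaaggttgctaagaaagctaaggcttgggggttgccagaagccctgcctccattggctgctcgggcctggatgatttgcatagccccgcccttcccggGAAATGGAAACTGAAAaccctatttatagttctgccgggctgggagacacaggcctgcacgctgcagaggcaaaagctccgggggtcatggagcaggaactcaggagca

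The Oas1a window holds 2 overlapping matches that start 41 and 35 bases before the gene start, the Oas1b window 2 that start 59 and 53 bases before it, and the Rsad2 window 1 that starts 147 bases before it. Of the 30 interferon-induced genes measured, 22 had a promoter in the table, and 15 of these (68.2%) held the motif, against 3.92% of all 33469 promoters of the same length. Among the 14 with both IUGR pools below both controls, 11 held it, and among the other 8, 4 held it, Cxcl10 included. The window of Tnfsf10, the member with the lowest difference, held none. Of 23 MHC class I and peptide loading genes with a promoter, described next, 9 held the motif (39.1%). There the order was the reverse, with 4 of 16 (25%) among those with both IUGR pools below both controls and 5 of 7 (71.4%) among the others. A match is a description of these letters and not a binding site.

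MHC class I genes had the same direction. RT1-A1, a classical class I heavy chain, stood at 8.87 and 8.50 in the IUGR pools and at 10.29 and 9.68 in the controls, a difference of -1.30 ± 0.19 (limma adjusted p = 0.252), or 2.46-fold lower. RT1-S3 stood at 9.69 and 9.50 against 10.26 and 10.24, a difference of -0.66 ± 0.09 (limma adjusted p = 0.211). RT1-T24-4 stood at 11.59 and 11.59 against 12.45 and 12.16. No IUGR pool overlapped a control in any of these genes. RT1-CE15, RT1-CE7 and RT1-CE16 had differences of -0.70, -0.58 and -0.48. RT1 genes are near-identical copies that also differ between rats, so a probe can hold signal of several genes, and the number of separate genes involved is uncertain. B2m, the invariant light chain of all class I molecules, differed by -0.12 ± 0.08, and the peptide transporter Tap1 by -0.12 ± 0.10. Of 24 class I and peptide loading genes, 17 had both IUGR pools below both controls and 3 had both above. Over all features these shares were 19.1% and 18.3%. At an unadjusted p of 0.05, 8 of the 24 passed, all with a lower IUGR mean, against 5.47% of all features. The list's median was -0.16, with -0.13 in replicate 1 and -0.22 in replicate 2. In the MHC class II list, 5 of 13 genes had both IUGR pools below and 0 both above, beside the same all-feature shares. The class II median was -0.11. Ciita, the master regulator of class II genes, differed by -0.33 ± 0.14, and Cd74, the invariant chain, by -0.12 ± 0.09.

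**Figure D2:**
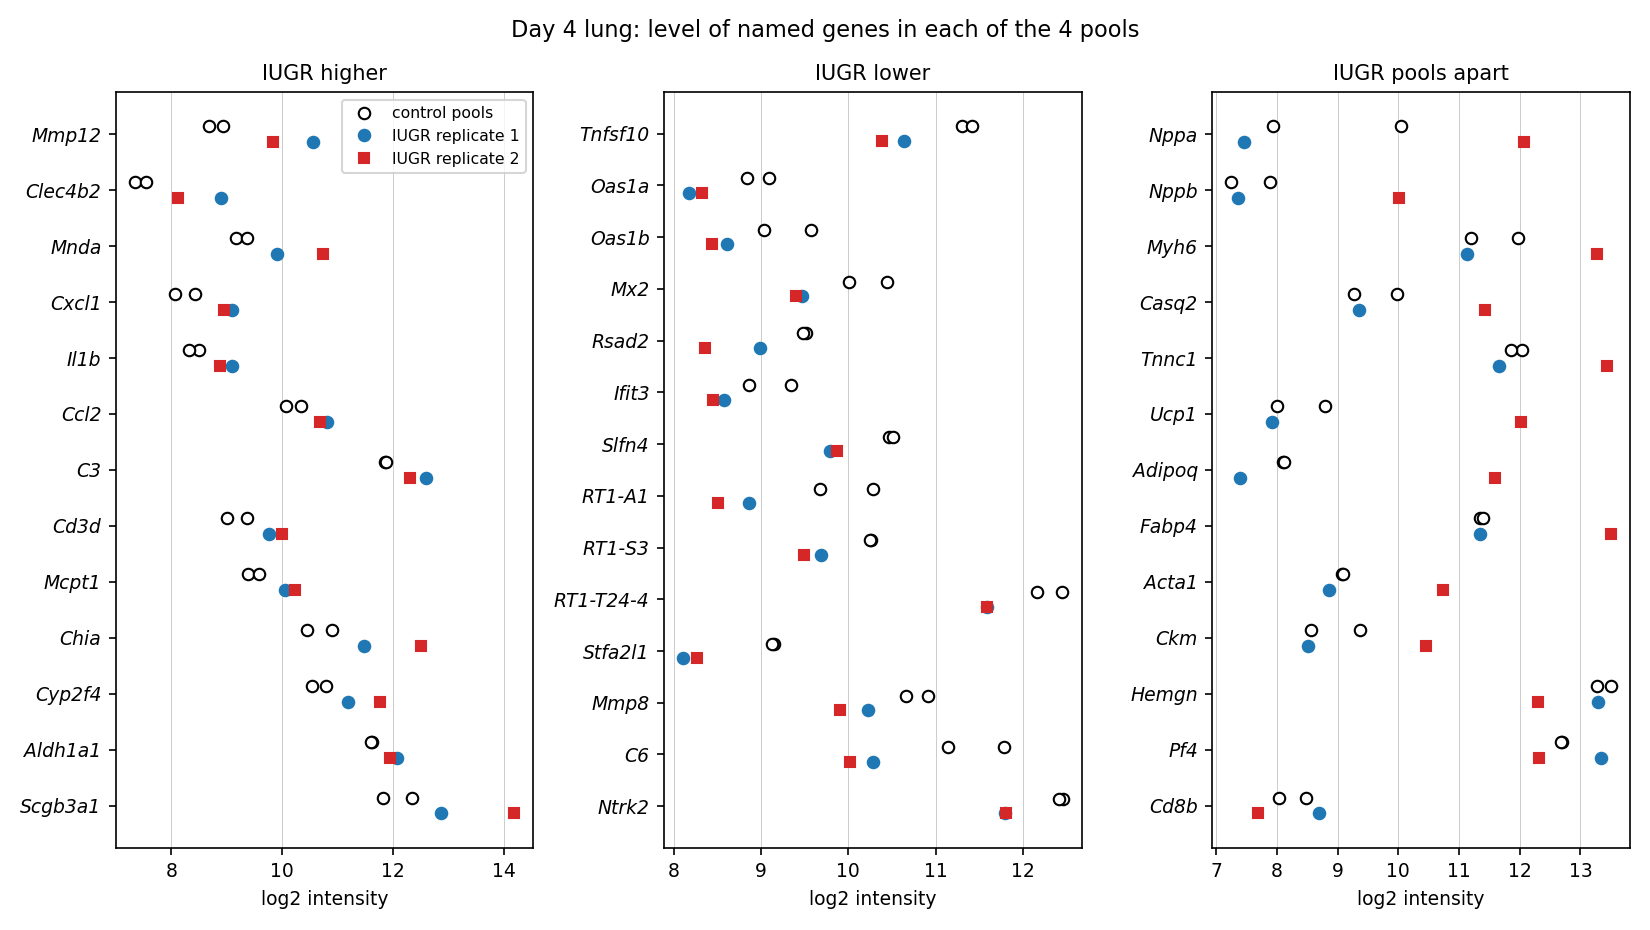
Log2 intensity of 40 named genes in each day 4 pool, with control pools as open circles, IUGR replicate 1 as filled circles and IUGR replicate 2 as squares; the left panel holds genes higher in IUGR lung, the middle panel genes lower and the right panel genes in which the IUGR pools stood apart. In the left and middle panels no IUGR pool overlaps a control, which follows from the choice of most of these genes by smallest p or widest gap. Of all features, 18.3% had both IUGR pools above both controls and 19.1% below. Nppa, in the right panel, ran from 7.46 to 12.08 between the IUGR pools.

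Granulocyte and lymphocyte genes were mixed. Stfa2l1, a stefin A cysteine protease inhibitor of the kind found in neutrophils, stood at 8.11 and 8.27 in the IUGR pools and at 9.14 and 9.13 in the controls, a difference of -0.95 ± 0.11 (limma adjusted p = 0.0930). It shared the smallest adjusted p of any named gene with Pde6h. Mmp8, the neutrophil collagenase, stood at 10.23 and 9.90 against 10.92 and 10.66, and S100a8, a subunit of calprotectin, at 12.41 and 12.19 against 12.67 and 12.70. These were the 3 of 15 neutrophil genes with both IUGR pools below both controls, a share near the 19.1% of all features. The list's median was -0.04, with 0.02 in replicate 1 and -0.21 in replicate 2. Cd3d, a chain of the T cell receptor complex, was higher at 9.77 and 9.99 against 9.37 and 9.005, a difference of 0.69 ± 0.13 (limma adjusted p = 0.310). Cd3g, its partner chain, overlapped the controls at 10.80 and 10.95 against 10.82 and 10.50. Klrb1a, a receptor of natural killer cells, differed by -0.51 ± 0.13 and Gzmk, a granzyme, by -0.44 ± 0.13. Of 29 T and natural killer cell genes, 7 had both IUGR pools above and 7 below, not far from the 18.3% and 19.1% of all features. Cd79b, a signalling chain of the B cell receptor, differed by -0.48 ± 0.15, and Cd37, a tetraspanin of leukocytes and chiefly B cells, by -0.49 ± 0.08 (limma adjusted p = 0.267). Mcpt1, a mast cell protease, stood at 10.05 and 10.23 against 9.38 and 9.59.

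Genes of erythroid precursors were lower, mainly in IUGR replicate 2. Alas2, the first enzyme of erythroid haem synthesis, stood at 12.07 and 11.74 in the IUGR pools and at 12.32 and 12.26 in the controls. Rhag, the Rh-associated glycoprotein, stood at 9.27 and 8.56 against 9.64 and 9.31. The median of 22 red cell genes was -0.23, with -0.08 in replicate 1 and -0.32 in replicate 2, so most of it came from 1 pool. The adult beta globin gene Hbb stood between 15.37 and 15.42 in all 4 pools.

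Most endothelial genes were slightly lower in IUGR lung. Ace, the angiotensin-converting enzyme of lung capillaries, stood at 11.47 and 11.47 in the IUGR pools and at 11.79 and 11.91 in the controls, a difference of -0.38 ± 0.08 (limma adjusted p = 0.341). Aplnr, the apelin receptor, stood at 12.73 and 12.54 against 12.92 and 12.96, and Flt1, a VEGF receptor, at 10.82 and 11.11 against 11.25 and 11.28. In these genes the groups did not overlap. Gja4, Emcn and Erg had differences of -0.28, -0.27 and -0.20. The general endothelial marker Pecam1 differed by -0.07 ± 0.09, and Kdr, the main VEGF receptor, by 0.04 ± 0.09, with overlapping groups in both. Of 30 endothelial genes, 24 had a lower IUGR mean, 17 had both IUGR pools below both controls and 3 had both above. Over all features these shares were 49.1%, 19.1% and 18.3%. The list's median was -0.10, with -0.10 in replicate 1 and -0.12 in replicate 2.

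Genes of the alveolar epithelium and of elastic fibres showed no common shift. Surfactant genes differed by 0.04 ± 0.08 (Sftpc), 0.10 ± 0.10 (Sftpb) and 0.17 ± 0.09 (Sftpa1), and the median of 19 type 2 cell genes was 0.01. Hopx, a nuclear protein that marks type 1 cells, stood at 11.997 and 12.26 in the IUGR pools and at 11.81 and 11.84 in the controls, a difference of 0.30 ± 0.10. Ager, the receptor RAGE on type 1 cells, differed by 0.10 ± 0.09, and the median of 16 type 1 cell genes was 0.04. Vegfa, the angiogenic factor made by alveolar epithelium, stood at 12.54 and 12.46 against 12.29 and 12.29. Eln, the elastin gene, stood at 10.78 and 10.68 against 10.46 and 10.50, a difference of 0.25 ± 0.08 (limma adjusted p = 0.418), so both IUGR pools lay above both controls. Fbln5 and Loxl1, which encode a fibulin and a cross-linking enzyme needed to assemble elastic fibres, differed by -0.11 ± 0.08 and -0.13 ± 0.07. The median of 9 elastic fibre genes was -0.03. Among growth genes, Dlk1, an imprinted Notch-like ligand of fetal tissues, stood at 9.06 and 9.12 against 9.48 and 9.47, a difference of -0.38 ± 0.08 (limma adjusted p = 0.333). Nnat, another imprinted gene, stood at 10.03 and 10.15 against 9.78 and 9.82. Igf1 differed by -0.02 ± 0.09.

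Housekeeping groups differed by small amounts, mostly in 1 direction. Hyou1, Pdia4 and Hspa5, chaperones of the endoplasmic reticulum, had differences of -0.30 ± 0.10, -0.25 ± 0.09 and -0.21 ± 0.08. In 16 of 25 heat shock and chaperone genes both IUGR pools lay below both controls, against 19.1% of all features. The list's median was -0.11. Cytosolic ribosomal protein genes had a higher IUGR mean in 47 of 51, with both pools above in 30 and a median of 0.08. Respiratory chain and ATP synthase genes had a higher IUGR mean in 39 of 43, with both pools above in 25 and a median of 0.12. A higher IUGR mean was found at 50.9% of all features and for 53.3% of the genes with a symbol. Both IUGR pools lay above both controls at 18.3% of all features. The respiratory chain median was 0.06 in IUGR replicate 1 and 0.20 in replicate 2, the pool high in heart and brown fat genes, whose tissues are rich in mitochondria. The part of those tissues in it was not tested. Fatty acid oxidation genes had medians of 0.03 and 0.15 in the same order. Cholesterol synthesis genes were the reverse, at 0.14 in replicate 1 and 0.05 in replicate 2.

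**Figure D3:**
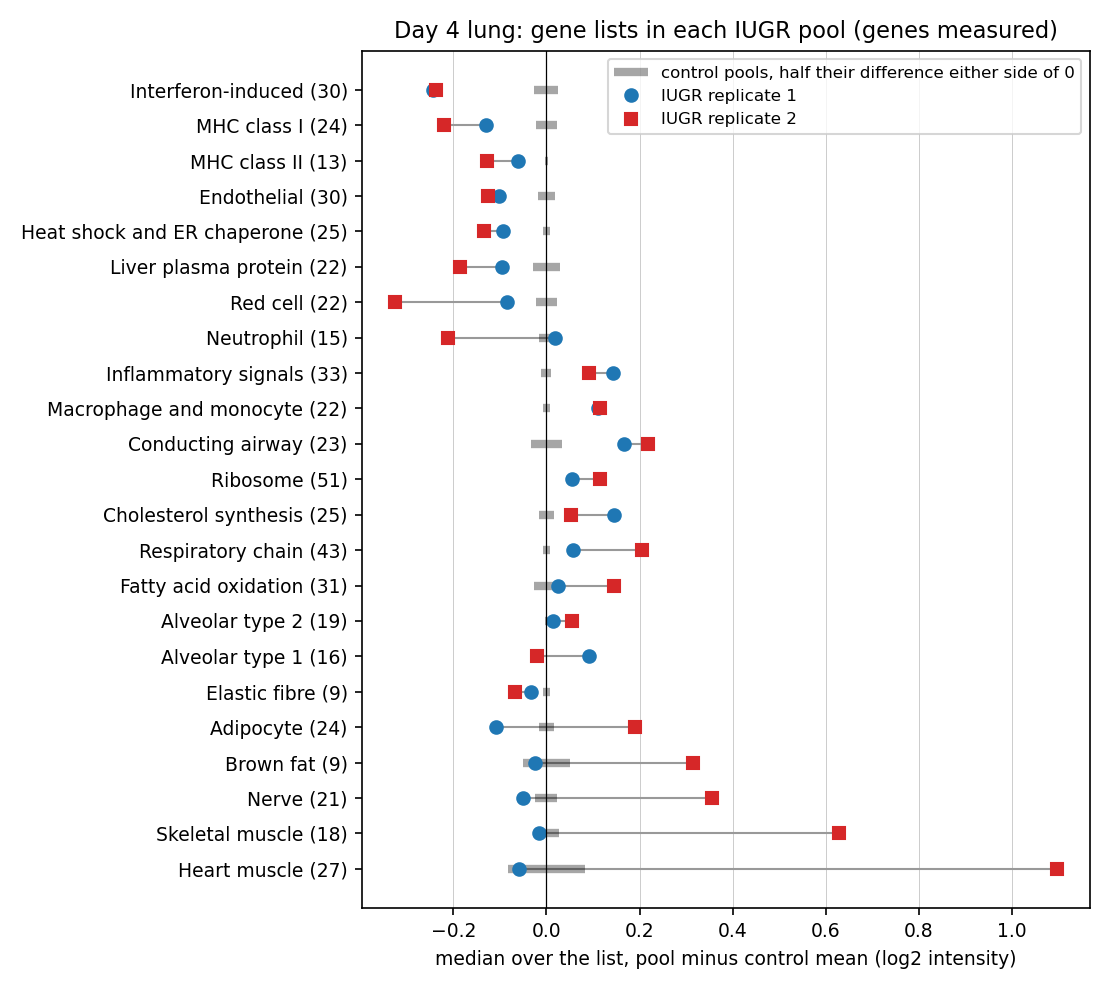
Median distance from the control mean for each gene list (log2 intensity; number of genes measured in brackets), for IUGR replicate 1 (circles) and replicate 2 (squares), with a grey bar for the spread of the control pools. Interferon-induced, MHC class I and endothelial lists lie left of 0 in both pools and the macrophage and airway lists right of it, while heart muscle lies at -0.06 and 1.10.

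Several single genes of other functions were as clearly separated. Pde6h, the inhibitory subunit of the cone phosphodiesterase, stood at 8.89 and 8.77 in the IUGR pools and at 9.63 and 9.81 in the controls, a difference of -0.89 ± 0.10 (limma adjusted p = 0.0930). Abcg3l4, an ABC transporter of the ABCG family, stood at 7.77 and 7.87 against 8.83 and 8.78, which is the widest gap between groups among named genes that were lower. Ntrk2, the receptor for brain-derived neurotrophic factor, stood at 11.80 and 11.81 against 12.45 and 12.42. The replicates of each side were close for these genes. Ostn, the peptide hormone osteocrin, stood at 10.07 and 10.32 against 11.69 and 10.89, so its controls differed from each other by more than its IUGR pools did. Lrp2, the endocytic receptor megalin, stood at 9.91 and 9.99 against 10.52 and 10.44, and Pla2g2d, a secreted phospholipase A2 of lymphoid tissue, at 8.68 and 8.65 against 9.33 and 9.94. Among genes higher in IUGR lung, Cirbp, a cold-inducible RNA-binding protein, stood at 12.38 and 12.48 against 11.98 and 12.09. Corin, the protease that activates atrial natriuretic peptide, was a member of the heart list that did not follow its split, at 9.11 and 9.25 against 8.65 and 8.70. Nkx2-5, a cardiac transcription factor, did likewise at 7.67 and 7.62 against 7.43 and 7.39.

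The count of calls depended on which IUGR pool was in the fit. With IUGR replicate 1 left out, 644 features passed an adjusted p of 0.05 in limma, 311 higher and 333 lower. With replicate 2 left out, 89 passed, 51 higher and 38 lower. In both fits the single remaining pool is assumed to vary like the other groups. Both fits use the same control pools, so their calls are not independent. The 2 sets shared 11 features, which are 1.71% of the first and 12.4% of the second, and 3 of them are named. Mmp12 differed by 1.75 in replicate 1 alone (limma adjusted p = 0.00896) and by 1.02 in replicate 2 alone (0.0304). Clec4b2 differed by 1.45 (limma adjusted p = 0.00361) and 0.68 (0.0299), and Stfa2l1 by -1.03 (limma adjusted p = 0.0296) and -0.87 (0.0208). With both pools in the fit none of these passed.

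The difference at day 4 was compared with that at day 10, where again 2 IUGR and 2 control pools were measured. No feature passed an adjusted p of 0.05 for the difference of the 2 effects in limma (0 of 26208, 0%), and 1933 passed an unadjusted p of 0.05 (7.38%). IUGR replicate 2 was the highest pool for Nppa and Ucp1 at day 10 too. Nppa stood there at 8.37 and 10.74 in the IUGR pools and at 7.24 and 7.17 in the controls, and Ucp1 at 11.30 and 13.29 against 7.71 and 9.15. For Ucp1, both IUGR pools lay above both controls at that age.

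C6 had nearly the same difference at both ages, -1.31 ± 0.24 at day 4 and -1.51 ± 0.24 at day 10, where it stood at 11.16 and 10.74 in the IUGR pools and at 12.27 and 12.65 in the controls. Bloc1s2, which encodes a subunit of a lysosome-related organelle complex, was 0.53 ± 0.11 higher at day 4 and 0.48 ± 0.11 at day 10. Several leading genes of day 4 had differences near 0 at day 10. Mmp12 differed by -0.01 ± 0.23 there, Clec4b2 by -0.02 ± 0.21, Stfa2l1 by 0.02 ± 0.11 and Tnfsf10 by 0.12 ± 0.11. The test of the change between ages gave adjusted p-values of 0.404, 0.519, 0.317 and 0.317 for these genes in limma.

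The smallest p for a change of effect belonged to genes whose difference had opposite signs at the 2 ages. Alb stood at 7.56 and 7.58 in IUGR lung against 7.93 and 7.95 at day 4, below the array medians of 8.68 to 8.71. At day 10 it stood at 8.64 and 8.67 against 8.17 and 8.14, where the array medians were 8.69 to 8.70. The effects differed by 0.87 ± 0.11 (limma adjusted p = 0.296). Plet1, an epithelial surface protein first described in placenta, differed by -0.45 ± 0.10 at day 4 and by 0.50 ± 0.10 at day 10. Lst1 had the opposite order, with 0.47 ± 0.09 at day 4 and -0.40 ± 0.09 at day 10 (limma adjusted p of the change = 0.3003). C3 had differences of 0.58 ± 0.13 and -0.26 ± 0.13. None of these passed the threshold.

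The lists had the following medians at day 10, beside -0.01 over all features. The interferon-induced genes stood at -0.06, against -0.22 at day 4, and MHC class I genes at -0.02 against -0.16. The inflammatory signal genes stood at -0.05 against 0.13, the macrophage genes at -0.08 against 0.12, and the airway genes at -0.00423 against 0.24. Endothelial genes were at -0.15 and -0.10, on the same side of 0 at both ages. The chaperone genes stood at 0.11 against -0.11. The list medians were not tested between ages.

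**Figure D4:**
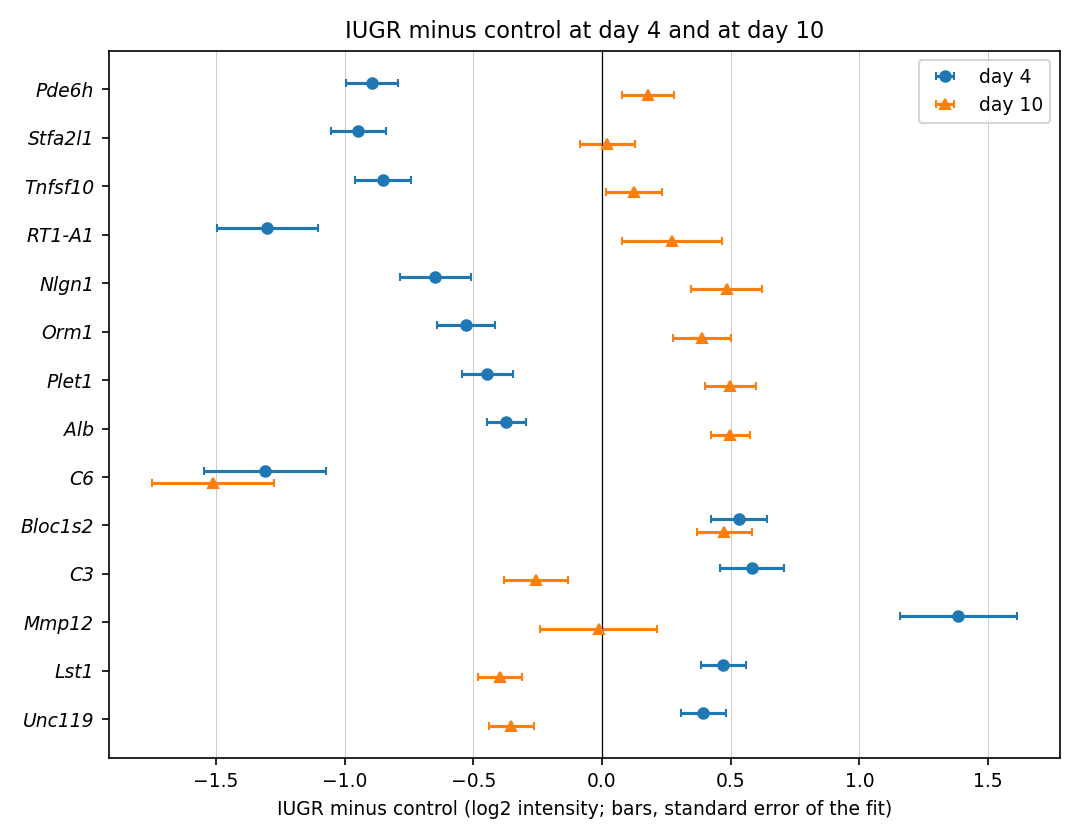
IUGR minus control (log2 intensity) at day 4 (circles) and at day 10 (triangles) for 14 named genes, with bars for the standard error of the fit. C6 and Bloc1s2 lie on the same side of 0 at both ages, whereas Mmp12 goes from 1.38 to -0.01 and Tnfsf10 from -0.85 to 0.12.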

How the data were processed

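Whole lung RNA of 12 pools was measured on arrays, and 1 model covered the 8 arrays from day 4 and day 10, so that all 4 groups share the estimate of spread. Arrays of day 21 were not used here. The authors deposited 1 linear intensity per feature, made with RMA per the submitters' processing notes, a method that corrects background, equalises arrays by quantiles and summarises probes; probe design and settings are not given in the sources used here. RMA compresses dim values, which understates differences of dim genes. The deposited intensities were taken to log2 and fitted in limma 3.58.1 (R 4.3.3) with 1 mean per diet and day (residual degrees of freedom 4, prior 3.79), with Benjamini-Hochberg adjustment over 26208 features. No filter was applied, and the script was checked on simulated data. The number of arrays limits the precision.

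Features carry RefSeq accessions. Of 10097 NM features, 9606 matched 1 current symbol (RefSeq, GRCr8), and only these were named, since the names of the 16111 XM features could not be checked. List members were matched by current symbol alone. For genes with several features the brightest was used. For Nnat and Igf1 the other feature differed by 0.33 and -0.11, with the same sign.

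Named genes were those with the smallest p (20 a direction), the widest gap between groups (20), the largest differences between the IUGR pools (20), the smallest p for the change of effect with age, up to 6 members of each list, defining markers and a fixed lung panel; the text gives a part of them, and a few are not reported here. The gene lists and rules were chosen with earlier results of these data known. B2m, Ccl7, Cxcl10, Foxj1, Hbb, Ifit3, Irf2, Irf7, Irf9, Mx1, Myl11, Oas1b, Oasl2, Tap1 and Tnf fall outside these rules and were chosen after their values were seen. The alternatives were a replicate block, a trended robust prior, NM features only, day 4 arrays only, centring on medians, quantile normalisation, each array left out, and a fit without the dimmest 30% of features.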

Additional observations from a re-analysis of the deposited data

How the results depend on the processing

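Of 132 named genes recomputed under up to 15 alternatives, 127 kept the sign of their day 4 difference in every alternative run, and 5 did not. Much of this count was fixed in advance. The day 4 difference, taken between group means, cannot change with day 10 arrays left out or day 4 arrays alone. Nor can it change with feature filters, the trended robust prior or the replicate block. Where the groups did not overlap, as in many genes picked by smallest p or widest gap, leaving out any array cannot reverse the sign. Quantile normalisation gave Hbb -0.00868. With single arrays left out, Hbb ran from -0.0193 to 0.0303, Mx1 from -0.48 to 0.17, Foxj1 from -0.15 to 0.11, Ager from -0.0110 to 0.20 and Igf1 from -0.12 to 0.0828.

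With single arrays left out, the lone pool being assumed to vary like the other groups, the features past the adjusted threshold at day 4 ran from 0 to 644 and those past the unadjusted one from 1635 (without control replicate 2) to 4873 (without IUGR replicate 1). For the change of effect with age they ran from 0 to 152 (36 without IUGR replicate 2) and from 1087 to 3766. A trended robust prior called 1 feature at day 4, as did leaving out control replicate 1. NM features alone, which are fewer, gave 891 features past the unadjusted threshold at day 4 and 763 for the change of effect, with 76 and 6 past 1 between the IUGR and between the control pools. Day 4 arrays alone gave 1690 past the unadjusted threshold and 0 past the adjusted one.

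List medians with single day 4 arrays left out ran from -0.11 to 0.19 for adipocyte genes, 0.15 to 0.26 for airway, -0.0256 to 0.31 for brown fat, -0.12 to -0.0618 for endothelial, -0.0593 to 1.10 for heart muscle, -0.13 to -0.0731 for heat shock and chaperone, 0.0922 to 0.16 for inflammatory signal, -0.27 to -0.23 for interferon-induced, -0.19 to -0.0279 for liver plasma protein, -0.22 to -0.13 for MHC class I, -0.13 to -0.0603 for MHC class II, -0.0509 to 0.36 for nerve, -0.21 to 0.0179 for neutrophil, -0.32 to -0.0837 for red cell, 0.0577 to 0.20 for respiratory chain, 0.0559 to 0.11 for ribosome and -0.0156 to 0.63 for skeletal muscle genes. For heart, fat, muscle, nerve and red cell genes both ends of the range came from leaving out one or the other IUGR pool. The same held for MHC class I and II, neutrophil, respiratory chain and ribosome genes. For the other lists given here, leaving out a control pool set at least 1 end. Nerve genes also stood at 0.29 without control replicate 1. The cause of these shifts was not tested.

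The deviations of same-numbered pools were almost uncorrelated (correlation -0.0677 at day 4 and 0.0619 at day 10). These correlations cannot show whether the numbers pair the samples, since the labels do not tie pups or litters to pools. With a replicate block, 0 features passed the adjusted threshold in both tests, and 2374 (day 4) and 1728 (change of effect) passed the unadjusted one.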

Other observations

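Genes of the circadian clock had small differences that the text above does not describe. Per1, a core clock repressor, stood at 10.32 and 10.60 in the IUGR pools and at 10.95 and 10.72 in the controls. Dbp, a clock output transcription factor, stood at 11.04 and 11.09 against 11.44 and 11.20, and Nr1d2, the receptor REV-ERB beta, at 9.91 and 9.65 against 10.14 and 9.98. Both IUGR pools lay below both controls in each of these. Over 16 clock genes the median difference was -0.02, with 10 lower and 6 higher in IUGR lung. In 5 of the 16 both IUGR pools lay below both controls and in 1 above, against 19.1% and 18.3% of all features. The hour of collection is not given in the sources used here.

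Liver plasma protein genes had a median of -0.11. Both IUGR pools lay below both controls in 9 of 22 and above in 0, against 19.1% and 18.3% of all features. Cell cycle genes had medians of 0.13 in IUGR replicate 1 and -0.03 in replicate 2. Of 31 such genes, 26 lay above the control mean in replicate 1 against 14 in replicate 2. Of all 26208 features, 13029 lay above it in replicate 1 and 12911 in replicate 2, so only the replicate 1 count stood apart. Hypoxia-responsive genes had the opposite order of medians, with 0.01 and 0.15.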
